A study of Mus musculus with 6 samples.

Results

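Rbfox1 and 9 other genes for RNA-binding proteins that set tissue-specific splicing were examined in monolayer-expanded mouse chondrocytes. The genes were Rbfox1, Rbfox2, Rbfox3, Mbnl1, Mbnl2, Celf1, Celf2, Ptbp1, Ptbp2 and Nova1, taken by symbol, 10 of the 35976 genes in the count table. Rbfox1 was put forward because it differed between the groups in these libraries, so its difference is given below as a description with no test. The set was selected on these Rbfox1 counts in H3K9M against H3WT. The other 9 were chosen as its family or as regulators of the same kind.

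The cells were embryonic chondrocytes from hind limb articular cartilage of C57BL/6 x 129S4/SvJae mice at embryonic day 18.5. All were grown on tissue culture plastic for 16 population doublings in medium with 2 µg/ml doxycycline, which induced an H3.3 histone transgene. In the H3K9M group (3 libraries, replicates 1, 3 and 5) the transgene has methionine for lysine at residue 9 and methylation of that residue is described as suppressed. In the H3WT group (3 libraries, replicates 1, 2 and 4) it is wild-type H3.3. The comparison asked which transcripts differ when H3K9 methylation, a mark of silenced chromatin, is suppressed during expansion. The labels do not give the promoter that drives the transgene, nor whether the replicates came from separate animals, so p-values measure only the spread between these libraries.

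RBFOX proteins bind the RNA motif UGCAUG beside alternative exons, and promote inclusion of an exon when they bind downstream of it and skipping when they bind upstream. Rbfox1 is known from neurons, skeletal muscle and heart, Rbfox2 from many tissues, and Rbfox3 encodes the neuronal antigen NeuN. MBNL proteins promote adult splice forms in muscle and CELF proteins often act against them on the same exons. PTBP1 represses neuronal and muscle exons in most cells, including an exon that its neuronal relative PTBP2 needs for a stable transcript, and NOVA1 is a neuronal regulator.

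Total counts per library ranged from 15113675 to 19606082. On the second principal component (28.8% of the variance) the groups lay apart, H3K9M from 19.05 to 39.8 and H3WT from -71.5 to -11.4. On the first (35.5%) they did not, and H3K9M replicate 3 (51.0) and H3WT replicate 2 (49.1) lay together and H3WT replicates 1 (-56.2) and 4 (-51.5) lay at the other end, so results are also given without H3K9M replicate 3 and H3WT replicate 2 where they matter. Of the 13 chondrocyte markers 12 were in the table and all 12 were detected, with Col2a1, the main cartilage collagen, between 4913 and 14110.3 CPM (counts scaled to library size, with sizes normalised by TMM). The H3.3 genes differed by less than their standard errors, with log2 fold changes of -0.07 for H3f3a (SE 0.14) and 0.06 for H3f3b (SE 0.11), and gene counts do not show the mutated codon.

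Rbfox1 spans 1526172 bases of chromosome 16 (chr16:5885355-7411526, plus strand, GRCm38, GENCODE M21), and its annotated exons cover 4400 bases. Rbfox2 lies on chromosome 15 (chr15:77078990-77307004, minus strand) and Rbfox3 on chromosome 11 (chr11:118489762-118911597, minus strand). The muscleblind genes lie apart, Mbnl1 at chr3:60472830-60629750 (plus strand) and Mbnl2 at chr14:120275669-120431697 (plus strand). The CELF genes share a chromosome, Celf1 at chr2:90940382-91019497 (plus strand) and Celf2 at chr2:6539694-7509563 (minus strand). The others are Ptbp1 at chr10:79854427-79864771 (plus strand), Ptbp2 at chr3:119718742-119784466 (minus strand) and Nova1 at chr12:46694517-46818929 (minus strand). The coding stretches below show how far the family's reads can be told apart. They are the 90 coding bases in which Rbfox1 and Rbfox2 are most alike, in the RNA recognition motif that contacts UGCAUG, and the nearest stretch of Rbfox3, from GENCODE M21 transcripts, with capitals at bases that differ from Rbfox1.
Rbfox1: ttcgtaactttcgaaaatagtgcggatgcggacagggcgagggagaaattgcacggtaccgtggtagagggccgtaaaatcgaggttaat
Rbfox2: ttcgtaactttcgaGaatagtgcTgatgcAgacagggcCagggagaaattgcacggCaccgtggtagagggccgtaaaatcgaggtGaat
Rbfox3: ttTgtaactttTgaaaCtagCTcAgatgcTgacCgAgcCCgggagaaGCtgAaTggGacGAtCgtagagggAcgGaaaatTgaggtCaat
The Rbfox1 stretch is coding bases 535 to 624 of the longest annotated coding sequence. Rbfox2 differs from it at 6 of the 90 bases and Rbfox3 at 23. No run of more than 29 identical bases is shared by any pair of Rbfox1 and Rbfox2 transcripts, and none of more than 20 by Rbfox1 and Rbfox3. No other gene has a transcript with 90% identity to the longest Rbfox1 transcript over 200 bases, which was also so for every other member except Ptbp1, with 2 such genes.

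Rbfox1 has 2 start sites with a promoter window in RefSeq, more than a megabase apart, and gene counts add up transcripts from both. The 250 bases before each start are shown because the counts do not tell which start was used, and capitals mark each CpG (the letters CG). Both are on the plus strand of GRCm38.p6, at chr16:5884543-5884792 and chr16:7069585-7069834.
Rbfox1 upstream start: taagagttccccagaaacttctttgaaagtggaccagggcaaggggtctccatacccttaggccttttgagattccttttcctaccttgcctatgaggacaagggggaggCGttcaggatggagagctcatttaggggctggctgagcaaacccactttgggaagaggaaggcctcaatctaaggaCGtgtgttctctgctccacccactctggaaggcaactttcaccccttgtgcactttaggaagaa
Rbfox1 internal start: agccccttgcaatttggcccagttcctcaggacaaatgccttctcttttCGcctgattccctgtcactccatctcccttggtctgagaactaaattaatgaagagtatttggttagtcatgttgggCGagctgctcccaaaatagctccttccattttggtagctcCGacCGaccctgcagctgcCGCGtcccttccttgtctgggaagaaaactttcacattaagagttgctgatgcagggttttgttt
The upstream start has 2 CpG in these bases and the internal start 6. In the full 300-base windows they have 3 and 7 CpG, against a median of 7 over 32851 RefSeq promoter windows, of which 23.3% and 47.9% have fewer. A window was found for 9 of the 10 members. The windows of Celf1 (34 CpG), Ptbp2 (36), Ptbp1 (22) and the richest windows of Mbnl1 (41) and Celf2 (48) have more CpG than the upper quartile of 20. No window of Rbfox1, Nova1 (14), Mbnl2 (10) or Rbfox3 (4) does.

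Rbfox1 was low in H3WT and higher in H3K9M, with no overlap. Library by library, it had 143, 474 and 288 counts in replicates 1, 3 and 5 of H3K9M, and 35, 30 and 21 in replicates 1, 2 and 4 of H3WT. Normalised levels were 9.58, 22.9 and 14.7 CPM in H3K9M and 1.96, 1.56 and 1.24 CPM in H3WT. The lowest H3K9M library lay above the highest H3WT library, and H3K9M replicate 3 was the highest of all. The means were 15.7 ± 6.72 CPM and 1.59 ± 0.365 CPM (SD, n = 3 each), a fitted log2 fold change of 3.305 (SE 0.41). It was between 2.94 and 3.56 when any 1 library was left out, and 2.93 without both H3K9M replicate 3 and H3WT replicate 2. Because these are bulk samples, more cells with Rbfox1 and more Rbfox1 RNA per cell cannot be told apart.

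Rbfox2 carried most RBFOX reads in every library. Its levels were 188, 194 and 182 CPM in replicates 1, 3 and 5 of H3K9M, and 217, 176 and 241 CPM in replicates 1, 2 and 4 of H3WT. H3WT replicate 2 lay below all H3K9M libraries and the other H3WT libraries lay above them, so the groups overlapped. Its fitted log2 fold change was -0.17 (SE 0.14, 95% interval -0.49 to 0.16, adjusted p 0.675, edgeR), which did not pass. Rbfox3 had 0 counts in all 6 libraries, where 3 counts would be 0.145 to 0.201 CPM.

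Rbfox1 gave 4.85%, 10.6% and 7.47% of the RBFOX reads in replicates 1, 3 and 5 of H3K9M. In H3WT replicates 1, 2 and 4 it gave 0.899%, 0.879% and 0.511%. The 95% Wilson intervals, which cover counting error only, ran from 4.13% to 11.5% over the H3K9M libraries and from 0.335% to 1.25% over the H3WT libraries. The means were 7.63% ± 2.86 and 0.763% ± 0.218 (SD, n = 3 each), and 13.2% ± 4.66 and 1.40% ± 0.399 when reads were first divided by exon length. Rbfox2 thus remained the main RBFOX transcript in both groups. This share rests on the same Rbfox1 counts and is no separate evidence of the difference.

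**Figure D1:**
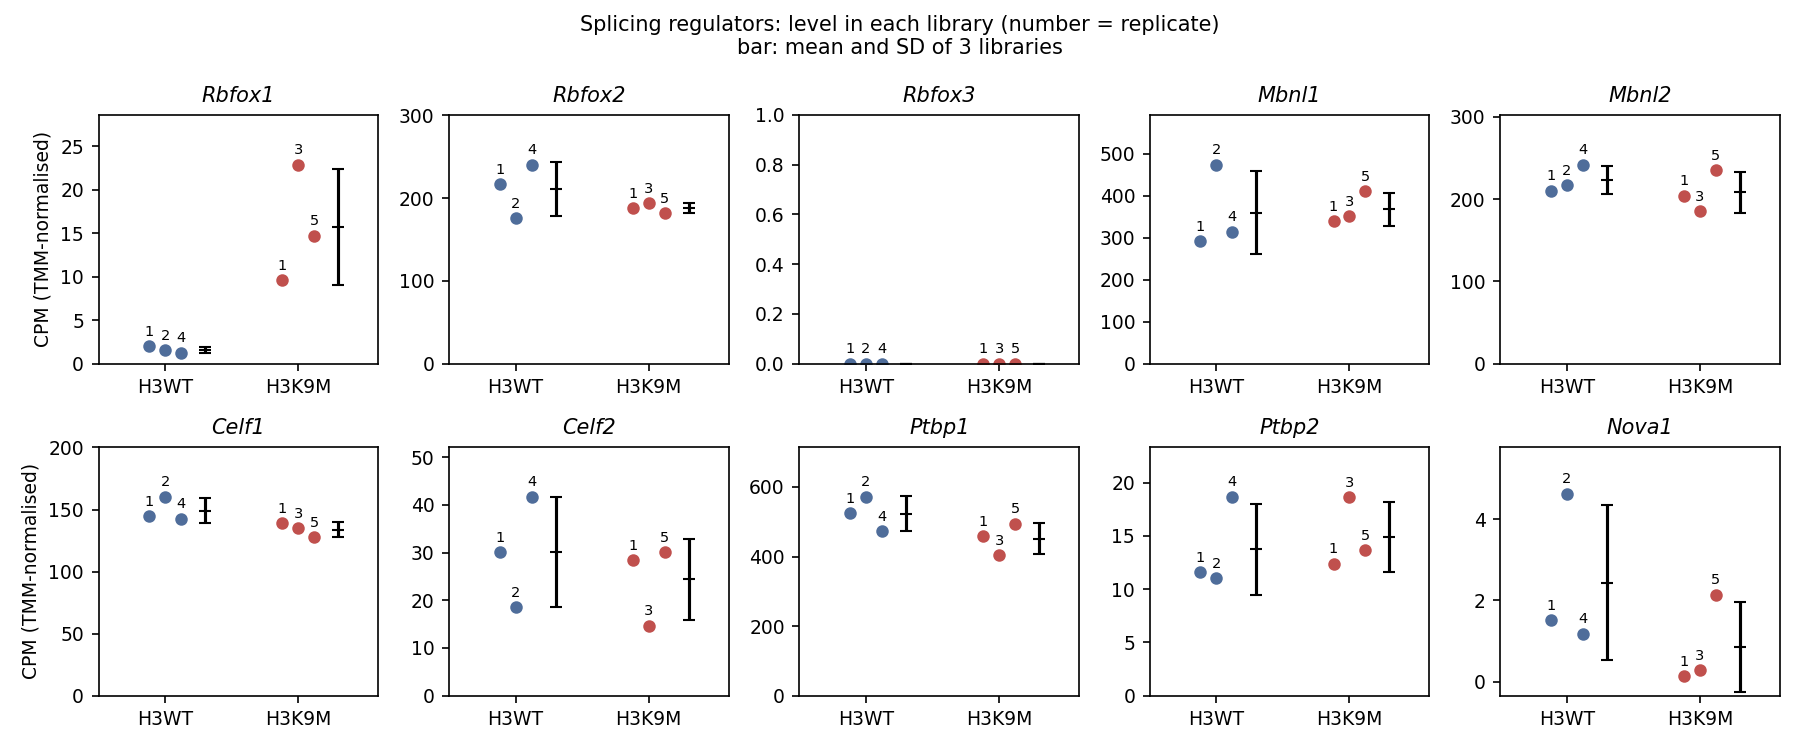
Level of each of the 10 members in CPM (y axes, linear, each with its own range) in the 3 H3WT libraries (blue) and 3 H3K9M libraries (red), with replicate numbers at the points and the mean and SD of each group in black. The groups do not overlap for Rbfox1 (1.24 to 1.96 against 9.58 to 22.9 CPM) or for Celf1, and Rbfox3 is at 0 throughout.

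Of the 10 members 9 passed the filter on low counts and were tested. Nova1 passed it through the 3 H3WT libraries and H3K9M replicate 5. By the quasi-likelihood test of edgeR, adjusted by Benjamini-Hochberg over 13761 genes, 0 of the 8 tested members other than Rbfox1 had an adjusted p under 0.05, where the share of all genes called was 0%. Of these 8, 0 lay under an unadjusted p of 0.05, against 12.2% of all genes (6.42% higher and 5.77% lower in H3K9M). Neither count includes Rbfox1, since its choice used this contrast. The groups did not overlap for 2 of the 9, Rbfox1 and Celf1, against 19.4% of all genes (10.7% higher and 8.68% lower). Rbfox1 was chosen on this contrast, so its part in the count of 2 was set by that choice. Of the other 8 only Celf1 lacked overlap. The median log2 fold change of the 9 was -0.16 against -0.0029 over all genes tested. In the other settings 0 of these 8 were called, and the share of all genes called was 2.38% with the DESeq2 Wald test, 0.18% with no filter on low counts, 0.639% without H3WT replicate 2, 0.0141% without H3K9M replicate 3, and 2.19% without both libraries. With Rbfox1 counted each time, members without overlap numbered 1 with library size alone (19.3% of all genes) and 5 without H3K9M replicate 5 (29.4%). They numbered 4 without H3WT replicate 2 (37.4%), 4 without H3WT replicate 4 (28.3%), and 4 without both libraries (50.2%).

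The muscleblind genes were expressed at similar levels in both groups. Mbnl1 had 339, 351 and 411 CPM in replicates 1, 3 and 5 of H3K9M, and 291, 474 and 314 CPM in replicates 1, 2 and 4 of H3WT. The H3WT libraries lay on both sides of the H3K9M libraries, with replicate 2 the highest of the 6. The log2 fold change of Mbnl1 was 0.03 (SE 0.20, 95% interval -0.43 to 0.48, adjusted p 0.972, edgeR), and its sign turned to -0.10 without H3WT replicate 1, to -0.06 without H3WT replicate 4 and to -0.05 without H3K9M replicate 5. Mbnl2 had 204, 185 and 235 CPM against 210.0, 217 and 242 CPM in the same order, and the ranges overlapped. Its log2 fold change was -0.10 (SE 0.13, 95% interval -0.40 to 0.20, adjusted p 0.816, edgeR). An exon of Mbnl2 shares 86 bases with Gm26679 on the opposite strand, which had 0 counts.

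Celf1, a regulator that acts on many of the exons bound by MBNL proteins, had 139, 135 and 127.5 CPM in replicates 1, 3 and 5 of H3K9M, and 144.5, 160.4 and 143 CPM in replicates 1, 2 and 4 of H3WT. All 3 H3K9M libraries lay below the lowest H3WT library, by a small margin. Between the groups Celf1 had a log2 fold change of -0.16 (SE 0.11, 95% interval -0.41 to 0.10, adjusted p 0.605, edgeR), and the groups overlapped when library size alone was used as the scaling. Celf2, which is more tissue-restricted, had 28.4, 14.6 and 30.1 CPM against 30.0, 18.5 and 41.7 CPM. The 2 lowest libraries were H3K9M replicate 3 and H3WT replicate 2, the same 2 that lay together on the first principal component. Celf2 had a log2 fold change of -0.30 (SE 0.36, 95% interval -1.15 to 0.54, adjusted p 0.791, edgeR) and 0.0072 without H3WT replicate 4. Celf2 gave 9.79% and 10.4% of the Celf1 and Celf2 reads in those 2 libraries and 17.0% to 22.6% in the other 4. Exons of Celf2 share 1961 bases with Gm26565 on the opposite strand, for which no counts were given.

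Ptbp1, the general repressor of the PTB family, was the member with the highest level per length. It had 458, 403 and 494 CPM in replicates 1, 3 and 5 of H3K9M, and 525, 572 and 472 CPM in replicates 1, 2 and 4 of H3WT. H3K9M replicate 5 lay above H3WT replicate 4, so the groups overlapped. For Ptbp1 the log2 fold change was -0.21 (SE 0.14, 95% interval -0.52 to 0.10, adjusted p 0.566, edgeR). Exons of Ptbp1 share bases with 3 genes on the opposite strand, and 2 of these, E130317F20Rik and Plppr3, had 616 and 313 counts in all 6 libraries together, so a small part of its count is uncertain where strand was not used. Ptbp2, the neuronal relative, had 12.4, 18.6 and 13.6 CPM against 11.6, 11.0 and 18.7 CPM. H3K9M replicate 3 and H3WT replicate 4 were the high libraries, one in each group. The log2 fold change of Ptbp2 was 0.12 (SE 0.28, 95% interval -0.54 to 0.77, adjusted p 0.909, edgeR), and -0.07 without H3K9M replicate 3 and -0.01 without H3WT replicate 2. Ptbp2 gave between 1.89% and 4.41% of the PTB reads of a library.

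Nova1 was near the floor of 3 counts in part of the libraries. Libraries held 2, 6 and 42 counts in replicates 1, 3 and 5 of H3K9M, and 27, 89 and 20 in replicates 1, 2 and 4 of H3WT. The H3WT libraries lay above H3K9M replicates 1 and 3, and H3K9M replicate 5 lay within the H3WT range. The log2 fold change of -1.49 (SE 1.10, 95% interval -4.01 to 1.03, adjusted p 0.622, edgeR) was -3.45 without H3K9M replicate 5 and -0.63 without H3WT replicate 2. Its interval covers large differences in both directions. Exons of Nova1 share 310 bases with Gm33869 on the same strand, which had 24 counts in all 6 libraries together. Part of the Nova1 count is therefore uncertain.

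**Figure D2:**
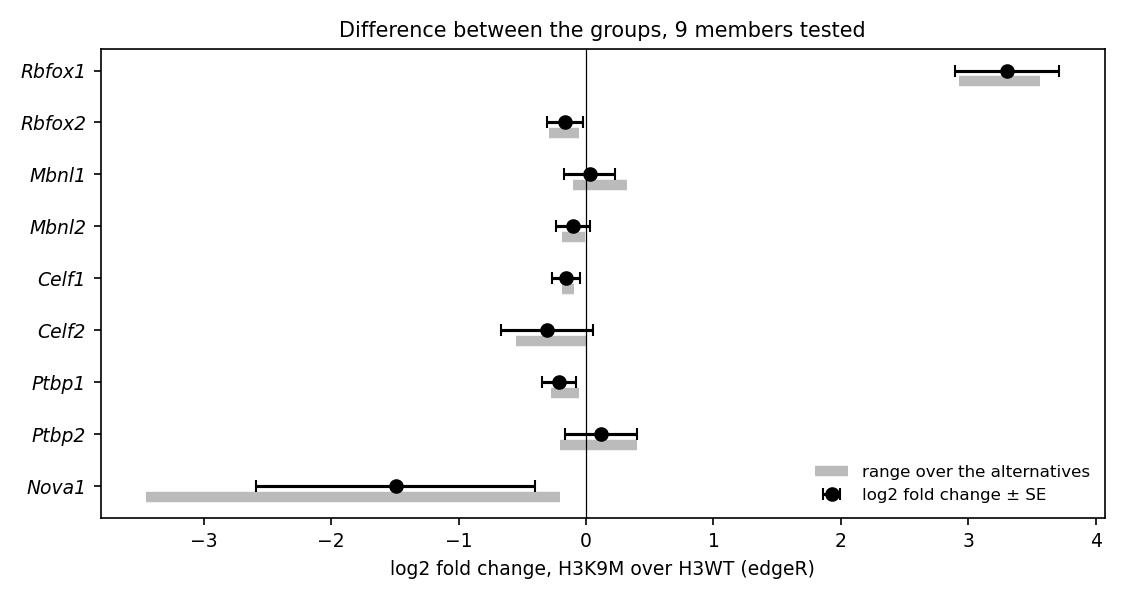
Fitted log2 fold change of H3K9M over H3WT (x axis) for the 9 members tested, with black bars for ± 1 SE and grey bars for the range over the other fits, including those without 1 library. Rbfox1 stands at 3.305, the other members but Nova1 lie between -0.30 and 0.12, and the range of Nova1 is the widest.

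Levels of different genes were compared per length, as TPM (counts per base of annotated exon, scaled to the same sum in every library). In H3WT the order was Ptbp1 at 434 ± 43.8 TPM, Rbfox2 at 102 ± 15.4, Mbnl1 at 75.7 ± 21.7, Mbnl2 at 73.1 ± 5.73 and Celf1 at 69.5 ± 5.16 (SD, n = 3). Exon unions run from 4400 bases for Rbfox1 to 25884 for Celf2 and can overstate transcript length. Below these genes lay Ptbp2 at 5.89 ± 1.84 TPM, Celf2 at 4.57 ± 1.75, Rbfox1 at 1.42 ± 0.316 and Nova1 at 1.10 ± 0.867. Mbnl1, Mbnl2 and Celf1 did not differ beyond their spread, nor did Rbfox2 and Mbnl1, Ptbp2 and Celf2, or Rbfox1 and Nova1. In H3K9M the order was the same except that Rbfox1, at 14.2 ± 6.71 TPM, stood above Ptbp2 (6.38 ± 1.73), Celf2 (3.64 ± 1.15) and Nova1 (0.380 ± 0.491). Even there Rbfox1 was far below Rbfox2 at 90.3 ± 6.69 TPM. Over the 6 libraries Ptbp1 lay at percentile 97.1 of the tested genes by TPM and Rbfox1 at percentile 25.5.

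**Figure D3:**
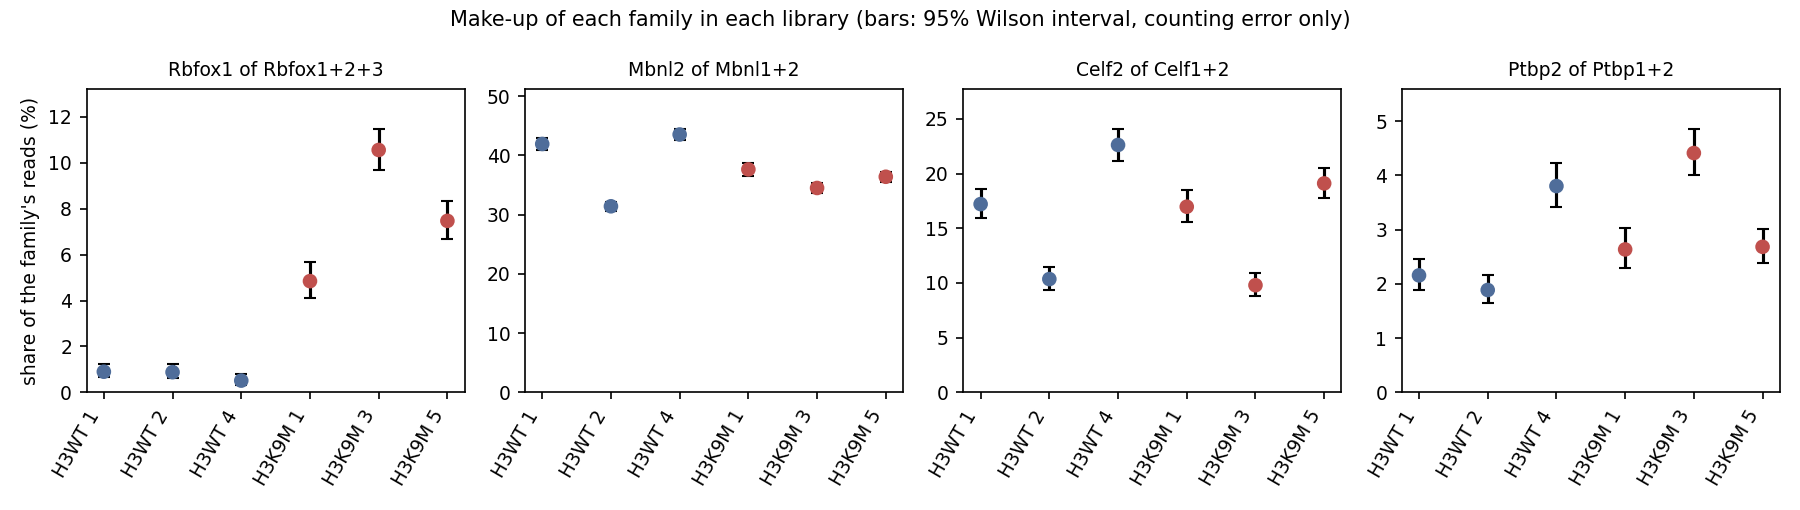
Share of a family's reads (y axes, percent, from 0) given by Rbfox1, Mbnl2, Celf2 and Ptbp2 in each library, H3WT in blue and H3K9M in red, with 95% Wilson intervals for counting error. The Rbfox1 share is 0.511% to 0.899% in H3WT and 4.85% to 10.6% in H3K9M, while the shares of the other 3 genes overlap between the groups.

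Marker genes of other cell types that express Rbfox1 were measured beside it. The 19 skeletal muscle markers summed to 192, 279 and 31.2 CPM in replicates 1, 3 and 5 of H3K9M, and to 36.6, 14.9 and 30.5 CPM in replicates 1, 2 and 4 of H3WT. The sum was highest in H3K9M replicates 1 and 3, and in H3K9M replicate 5 it lay within the H3WT range. Acta1, a skeletal actin, made up most of it in 2 H3WT libraries, with 32.8, 33.2 and 5.97 CPM in H3K9M and 26.2, 3.27 and 24.0 CPM in H3WT. Without Acta1, a step chosen after its values were seen, the other 18 summed to 159, 246 and 25.3 CPM in H3K9M and to 10.4, 11.7 and 6.42 CPM in H3WT, with no overlap. In H3K9M replicate 5, 9 of the 19 markers were higher than in every H3WT library, Myod1, Des, Myh3 and Tnnt3 among them. Some were so by few reads (Myog 0.204, Tnni1 0.204 and Ttn 0.255 CPM). Acta1, Tnnc1 and Mylpf lay below at least 1 H3WT library, and Tnnc2, Ckm and Actn2 were at 0 in this library. The same share over all genes was not computed, so the count is only a description. The filter on low counts kept 8 markers, some with H3WT libraries at 0, and 0 of these passed an adjusted p of 0.05 (edgeR). Since Myod1 and Myh3 passed it through the libraries where they were high, no count of directions is given. Myod1, the myogenic transcription factor, had 19.5, 57.0 and 4.29 CPM in replicates 1, 3 and 5 of H3K9M. The H3WT libraries had 0, 1.04 and 0 CPM. No fold change or p of Myod1 is given, because of how it passed the filter. Tnnt3, the fast muscle troponin T, had 10.2, 10.8 and 5.97 CPM against 0.281, 2.08 and 1.65 CPM (log2 fold change 2.75 ± 0.66 SE, edgeR adjusted p 0.216). Myf5, Myf6, Myh8 and Pax7 were at 0 in all 6 libraries. The part of muscle-like transcripts in the Rbfox1 difference was not tested.

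The 12 neuron markers summed to 149, 165 and 121 CPM in replicates 1, 3 and 5 of H3K9M, and to 138, 89.7 and 87.6 CPM in replicates 1, 2 and 4 of H3WT, which overlap. Of these 12, 3 (Dcx, Nefl and Snap25) had 0 counts in all 6 libraries, as did Rbfox3. Others were detected. Map2 had 28.4, 25.8 and 36.7 CPM in H3K9M and 37.7, 35.5 and 25.6 CPM in H3WT, which overlap. Stmn2 had 1.74, 15.3 and 1.48 CPM in H3K9M and 0.281, 5.45 and 0.412 CPM in H3WT, which also overlap. Syn1, which encodes a synaptic vesicle protein, had 22.3, 35.2 and 22.7 CPM against 8.20, 11.6 and 8.60 CPM (log2 fold change 1.50 ± 0.26 SE, edgeR adjusted p 0.170), with no overlap. Ncam1, an adhesion molecule of neurons and muscle precursors, had a log2 fold change of 0.47 ± 0.32 (SE, edgeR adjusted p 0.595). It had 84.8, 82.9 and 55.3 CPM in H3K9M and 79.9, 34.9 and 46.5 CPM in H3WT, most of the sum in H3WT replicate 1. No marker was taken out of the neuron sum, as Acta1 was from the muscle sum. The overlap of the neuron sums and the separation of the muscle sums without Acta1 are therefore not comparable. The chondrocyte markers summed to 7398, 7828 and 11590.4 CPM in replicates 1, 3 and 5 of H3K9M, and to 7295, 19264.5 and 13607 CPM in replicates 1, 2 and 4 of H3WT. H3WT replicate 1 had the lowest sum of the 6 libraries, so the sums overlapped. Of the 12, 11 were lower on average in H3K9M, against 6934 of all 13761 genes tested. The groups lacked overlap for 0 of the 12, against 19.4% of all genes. Of these 12, 1 had an unadjusted p under 0.05, Col9a1 (log2 fold change -1.89 ± 0.75 SE, edgeR adjusted p 0.395). Sox9, the cartilage transcription factor, had a log2 fold change of -0.60 ± 0.27 (SE, edgeR adjusted p 0.429).

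The 7 macrophage and blood markers summed to between 8.04 and 16.5 CPM in H3K9M and between 3.84 and 6.29 CPM in H3WT. These sums did not overlap, with no marker taken out, so separation of a marker sum was not particular to muscle. Ptprc, Adgre1 and Hbb-bs were at 0 in all libraries. Cd68, a lysosomal protein of macrophages, had a log2 fold change of 1.75 ± 0.76 (SE, edgeR adjusted p 0.411), and Csf1r one of 0.72 ± 1.18 (SE, edgeR adjusted p 0.858). The 5 endothelial markers summed to less than 1 CPM in every library.

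**Figure D4:**
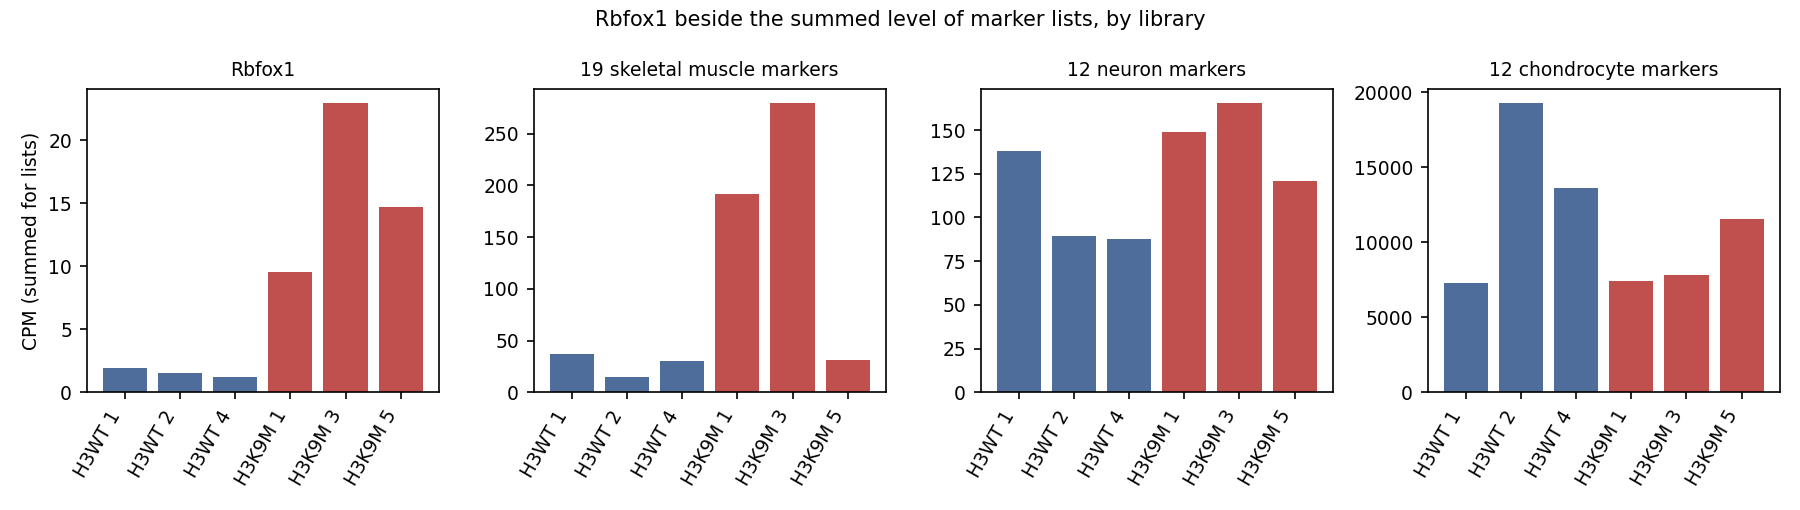
Level of Rbfox1 (left) and summed levels of 19 skeletal muscle, 12 neuron and 12 chondrocyte markers in CPM (y axes, from 0), 1 bar per library, H3WT in blue and H3K9M in red. Rbfox1 is higher in all 3 H3K9M libraries, and the muscle sum is highest in H3K9M replicates 1 and 3 (192 and 279 CPM), while replicate 5 (31.2 CPM) lies within the H3WT range with Acta1 and above it without (25.3 against at most 11.7 CPM).

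The rest of the splicing machinery was described by lists. Of 30 other tissue-enriched splicing regulators 20 passed the filter, 0 passed the adjusted threshold (edgeR), and 3 had an unadjusted p under 0.05, 1 higher and 2 lower in H3K9M. Their median log2 fold change was -0.11, against -0.0029 for all genes. Rbpms, which controls smooth muscle exons, had 1.61, 1.93 and 2.65 CPM in replicates 1, 3 and 5 of H3K9M against 10.6, 3.17 and 8.01 CPM in the H3WT libraries (log2 fold change -1.80 ± 0.52 SE, edgeR adjusted p 0.255). Rbm38, a p53-induced RNA-binding protein, had 7.84, 8.99 and 7.19 CPM against 2.64, 5.86 and 2.77 CPM (log2 fold change 1.09 ± 0.40 SE, edgeR adjusted p 0.347). For both genes the groups did not overlap. The epithelial regulator Esrp1 and the neuronal Celf3 had 0 counts in all 6 libraries.

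The large assembly of splicing regulators (LASR) is a complex with which RBFOX proteins associate. All 8 of its listed subunits were tested, 0 passed the adjusted threshold, and 1 had an unadjusted p under 0.05 (edgeR). Of the 8, 7 had a lower mean level in H3K9M, 1 of them Hnrnpm with a log2 fold change of only -0.0052. Of all 13761 genes tested 6934 were lower, and of the 18 other hnRNP genes 15 were. The median log2 fold change of the 8 was -0.18. Hnrnpul2 had 272, 246 and 283 CPM in replicates 1, 3 and 5 of H3K9M against 338, 315 and 331 CPM in the H3WT libraries (log2 fold change -0.30 ± 0.11 SE, edgeR adjusted p 0.363). Ddx5, an RNA helicase, had 544, 542 and 588 CPM against 579, 691 and 689 CPM, which overlap (log2 fold change -0.23 ± 0.13 SE, edgeR adjusted p 0.505). The groups did not overlap for Hnrnpul2, lower in H3K9M, where that share of all genes was 8.68%. Hnrnph1 had 163 CPM in H3K9M replicate 3 and 258 to 299 CPM in the other 5 libraries, with a log2 fold change of -0.23 (95% interval -0.71 to 0.25), and it was named after its values were seen.

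General splicing factors showed small differences. Among 13 SR protein and Tra2 genes 1 had an unadjusted p under 0.05, Srsf4 (log2 fold change -0.40 ± 0.16 SE, edgeR adjusted p 0.382), and the list's median was 0.0075. Srsf3 had the next smallest p (log2 fold change 0.23 ± 0.13 SE, edgeR adjusted p 0.522). Among 18 other hnRNP genes 0 had an unadjusted p under 0.05 and the median was -0.05. The smallest p-values there were those of Hnrnph3 (-0.38, SE 0.20, adjusted p 0.478) and Hnrnpd (-0.31, SE 0.16, adjusted p 0.479, edgeR).

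Among 29 core spliceosome genes 0 passed the adjusted threshold and 4 had an unadjusted p under 0.05 (edgeR), all higher in H3K9M, with a list median of 0.03. Of all genes 6.42% were under that p and higher in H3K9M, and 12.2% were under it in either direction. The 4 were Snrpf, Snrpd1, Snrpd3 and Snrpe, which encode Sm proteins that bind spliceosomal RNAs. Of the other Sm genes listed, Snrpd2 (0.38) and Snrpg (0.34) had positive log2 fold changes and Snrpb (-0.03) a negative one. Snrpf and Snrpd1 had the smallest p-values. Snrpf had 59.1, 47.3 and 51.7 CPM in replicates 1, 3 and 5 of H3K9M against 33.8, 36.7 and 29.0 CPM in the H3WT libraries (log2 fold change 0.67 ± 0.16 SE, edgeR adjusted p 0.212). Snrpd1 had 60.2, 48.2 and 47.9 CPM against 33.9, 36.8 and 34.6 CPM (log2 fold change 0.57 ± 0.15 SE, edgeR adjusted p 0.232). Neither gene's groups overlapped.

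**Figure D5:**
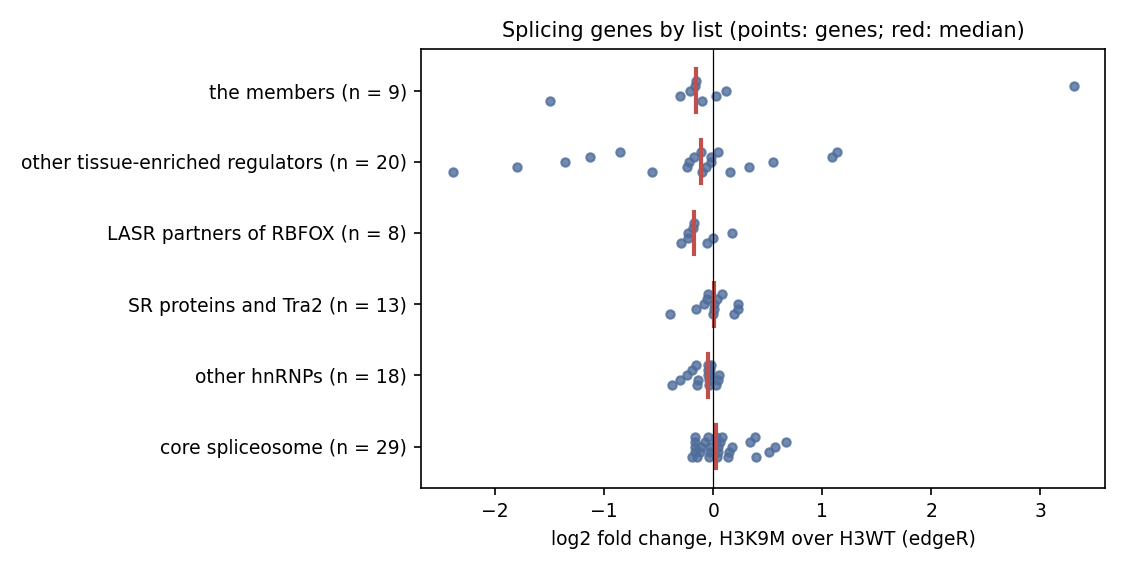
Fitted log2 fold change of H3K9M over H3WT (x axis) for each tested gene (points) of the members and of 5 lists of splicing genes, with the median of each in red. The medians lie between -0.18 and 0.03, and Rbfox1, at 3.305, lies outside the range of the 5 lists. It was chosen on this contrast and the lists were not, so its place is only a description.

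A list of 15 genes whose exons are known to be spliced under RBFOX, PTB, MBNL or CELF proteins was looked at for total level only, since gene counts do not show which exons were used. Of these 13 were tested, 0 passed the adjusted threshold, and 3 had an unadjusted p under 0.05, 2 higher and 1 lower (edgeR). Fgfr2, a fibroblast growth factor receptor, had 177, 117 and 213.5 CPM in replicates 1, 3 and 5 of H3K9M against 219, 254 and 355 CPM in the H3WT libraries (log2 fold change -0.71 ± 0.26 SE, edgeR adjusted p 0.347). Tnnt2, the cardiac troponin T, had 11.5, 9.18 and 7.35 CPM against 0.898, 5.76 and 1.24 CPM (log2 fold change 1.82 ± 0.69 SE, edgeR adjusted p 0.357). Neither overlapped between the groups.

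The genes whose level followed that of Rbfox1 most closely over the 6 libraries were Hsf1, Tmem126a, Mpzl3, Fam3c and Crabp2, by Pearson's r of log2 CPM, with r between 0.993 and 0.998. They are the top 5 of 12872 genes searched, over 6 libraries that also carry the group difference, and since they were picked by their r no p is given. Hsf1, the heat shock transcription factor, had 41.5, 45.5 and 43.7 CPM in replicates 1, 3 and 5 of H3K9M against 35.8, 34.3 and 34.5 CPM in H3WT. Crabp2, a retinoic acid binding protein, had 80.7, 131 and 81.7 CPM against 22.8, 22.7 and 19.1 CPM. Log2 fold changes were 0.32 for Hsf1, 0.45 for Tmem126a, 1.77 for Mpzl3, 0.36 for Fam3c and 2.18 for Crabp2, so the closest gene in pattern had a much smaller difference than Rbfox1.

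The neighbourhood of Rbfox1 was read from the RefSeq GRCm38.p6 gene order. The table's 3 RefSeq genes inside Rbfox1, all long noncoding RNAs, had 0 counts in the 6 libraries. At lower coordinates the nearest tested genes were Eef2kmt, Alg1 and Nagpa, the first 628837 bases away, with log2 fold changes of 0.15 (SE 0.22), -0.07 (SE 0.16) and -0.13 (SE 0.18). At higher coordinates they were Mettl22, Abat and Tmem186, the first 1058277 bases away, with 0.43 (SE 0.37), -1.74 (SE 0.48) and -0.49 (SE 0.31). The groups overlapped for 5 of these 6, where 19.4% of all genes tested lacked overlap. The exception was Abat, which encodes the enzyme that breaks down the transmitter GABA, with 6.30, 2.51 and 3.42 CPM in replicates 1, 3 and 5 of H3K9M against 13.1, 7.16 and 20.4 CPM in H3WT (adjusted p 0.246, edgeR). None of the 6 was higher in all H3K9M libraries than in all H3WT libraries, where 10.7% of all genes tested were. With 6 genes neither count can be told from the share over all genes.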

How the data were processed

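The authors deposited raw counts of reads by gene symbol for the 6 libraries, made with HISAT2 and featureCounts on mm10 per the submitters' processing notes, which also name DESeq2. Versions, annotation, strand and multi-mapping settings are not given in the sources used here. If strand was not used, reads of antisense partners cannot be told apart. All rows carried a gene symbol, and 0 columns belonged to other samples. Totals were 15113675 to 19606082, and replicate pairs differed by 26.5 to 114 times the sampling variance, so none was a repeated library.

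Counts were fitted in R 4.3.3 with edgeR 4.0.16 (filterByExpr, TMM, robust glmQLFit and glmQLFTest) over the 6 libraries with group as the only term, and p-values were adjusted by Benjamini-Hochberg over 13761 genes (threshold 0.05). The SE is the log2 fold change over the root of F. Log2 CPM used a prior count of 2. TPM used GENCODE M21 exon unions, found for 94.3% of tested genes. Wilson intervals (95%) and the floor of 3 counts cover counting error only. The computations were tested on simulated data. No exact permutation test was run, since 3 libraries against 3 allow no two-sided p smaller than 0.1.

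The values of 1 listed gene are not reported here. The members and lists come from general knowledge and were chosen with earlier results of these data known. Named genes are the members, the 2 smallest p-values of each list if none passed, the 5 genes most like Rbfox1 (mean at least 1 CPM), the 3 nearest tested genes on each side, and the H3.3 genes. The alternatives tried were limma-voom (limma 3.58.1), the Wald test of DESeq2 1.42.0, DESeq2 size factors, library size alone, no filter, at least 10 counts in every library, no robust estimation, and leaving out each library. Leaving out H3K9M replicate 3 and H3WT replicate 2 together was chosen after seeing the data.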

Additional observations from a re-analysis of the deposited data

How the results depend on the processing

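The Rbfox1 difference kept its direction in all 14 other fits, with log2 fold changes between 2.93 and 3.56. Rbfox1 was chosen on these counts and its groups do not overlap, so its direction was set beforehand. The range describes the size only and is no test. The count of members called was 0 in the reported fit and 1 with the DESeq2 Wald test, with no filter on low counts, and without both H3K9M replicate 3 and H3WT replicate 2. Over the fits without 1 library the count ran from 0 to 1, the 1 coming without H3WT replicate 2. That 1 is Rbfox1, which was chosen on these counts, so the count is no test of it, and 0 of the other members were called in any fit. In these settings more genes were called in all: 365 with DESeq2 (2.38% of genes), 36 with no filter (0.18%), 302 without both libraries (2.19%), and 0 to 91 without 1 library, the 91 (0.639%) without H3WT replicate 2 and 2 (0.0141%) without H3K9M replicate 3. The cause was not tested. Counts of members without overlap include Rbfox1 throughout. They were 2 in the reported fit, 1 with library size alone (19.3% of all genes) and 4 without both libraries (50.2%). Without 1 library they ran from 2 to 5, where fewer samples make separation more frequent. They were 5 without H3K9M replicate 5 (29.4% of all genes), and 4 without H3WT replicate 2 (37.4%) or H3WT replicate 4 (28.3%). The mean Rbfox1 share of RBFOX reads was 6.16% to 9.01% in H3K9M and 0.695% to 0.889% in H3WT without 1 library, and 13.2% and 1.40% per kilobase of exon, where the shorter Rbfox1 exons raise it. Over the fits without 1 library the log2 fold change ran from -0.10 to 0.29 for Mbnl1 (0.32 without both libraries), from -0.07 to 0.40 for Ptbp2 and from -0.55 to 0.0072 for Celf2. The sign of Ptbp2 also turned without both libraries (-0.20). The sign of Mbnl1 was negative without H3WT replicate 1 (-0.10), without H3WT replicate 4 (-0.06) and without H3K9M replicate 5 (-0.05), and that of Ptbp2 without H3K9M replicate 3 (-0.07) or H3WT replicate 2 (-0.01). Rbfox2, Mbnl2, Celf1, Ptbp1 and Nova1 kept their direction in every fit that tested them, and Nova1 was not tested with at least 10 counts in every library. No paired analysis was possible because the groups share 1 replicate number. Counts near the floor limit Nova1, and gene counts do not show exon use.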

Other observations

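Rbfox1 was the 6th longest gene among the 12976 tested genes with a GENCODE M21 span, with 5 longer. The 114 tested genes that span at least 500000 bases, Celf2 among them, had a log2 fold change of -0.15 at the median, with 49 higher and 65 lower in H3K9M, against -0.0029 over all tested genes. Their groups did not overlap in 25 (21.9%), 10 higher and 15 lower, against 19.4% of all tested genes. Within groups Rbfox1 varied more between libraries than most genes, with a pooled SD of 0.49 in log2 CPM, larger than in 71.0% of tested genes. Celf1 was among the least variable, with 0.08, and 2.99% of tested genes had a smaller SD. Nova1 had 1.39, larger than 94.2% of them.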
